A study of Mus musculus with 6 samples.

Results

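The genes described here encode components of the extracellular matrix, matrix-binding proteoglycans of the cell surface, and enzymes that cross-link collagen and elastin. They are Fn1, Ecm1, Mamdc2, Sparc, Col1a1, Vcan, Sdc3, Sdc4, Lox and Loxl3, which make 10 of the 55421 genes in the deposited count table. They were matched by gene symbol to Ensembl identifiers, and all 10 passed the filter on low counts. They were selected on matrix function and on their counts in the untreated and LL-2 medium libraries, so their values in that comparison are a description, given with no p-value, and their calls support nothing.

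Gene expression was measured by RNA sequencing in mouse macrophages of wild-type genotype, grown from bone marrow with M-CSF (macrophage colony-stimulating factor). In the conditioned-medium group, 3 wells received medium conditioned by LL-2 cells, a mouse Lewis lung carcinoma line, mixed 50% with RPMI-1640. In the untreated group, 3 wells stayed in RPMI-1640. The RPMI-1640 of both groups carried 10% serum, antibiotics and 20 ng/mL M-CSF, and RNA was taken at 24 h. The labels give no strain, age or sex, do not say whether the wells came from separate animals, and describe no well in medium conditioned by other cells. The p-values below therefore reflect well-to-well variation, and that variation may be technical.

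The conditioned-medium libraries held 28447825 to 30040682 counts and the untreated libraries 24179548 to 25916709. Levels are given as CPM, the count as a share of the library after scaling by the trimmed mean of M-values (TMM). A gene with 0 counts in a library could lie at up to 3 counts, or 0.0983 to 0.125 CPM, which covers counting error only. A positive log2 fold change means a higher level with conditioned medium. A gene was called where its p-value from edgeR's quasi-likelihood test, adjusted over all 13853 tested genes, was under 0.05. Lyz2, the macrophage lysozyme gene, stood at 47357 to 51589 CPM with conditioned medium and at 41947 to 50203 CPM untreated. It was not called, and of the 8 macrophage markers 3 were called higher (Csf1r, Itgam and Mertk) and 3 lower (Adgre1, Cd68 and Fcgr1).

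The extracellular matrix is built from fibrillar collagens, adhesive glycoproteins such as fibronectin, and proteoglycans that hold water and bind growth factors. Lysyl oxidases oxidise lysine residues of collagen and elastin, which lets fibres cross-link, and syndecans carry heparan sulfate chains that tether cells to the matrix. Macrophages are better known for taking up and degrading matrix than for depositing it, but they make several matrix proteins themselves, and versican is a known transcript of monocytes.

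Of the 10 genes, 2 rose and 3 fell with conditioned medium. Vcan rose most and Sdc4 rose modestly, while Mamdc2, Lox and Sdc3 fell. The other 5, namely Fn1, Ecm1, Sparc, Col1a1 and Loxl3, were not called, and their groups overlapped. Among all tested genes 27.9% were called, 12.6% higher and 15.2% lower, and the groups did not overlap for 42.8%, against 5 of the 10 genes here. Nothing is read from that comparison, since the genes were picked with these values known. The median log2 fold change was 0.28 over the 10 genes and 0.01 over all tested genes. With the replicate number as a block, which 36.3% of all tested genes passed, 4 of the 10 were higher and 4 lower. Sparc and Loxl3 were then also higher and Ecm1 also lower.

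**Figure D1:**
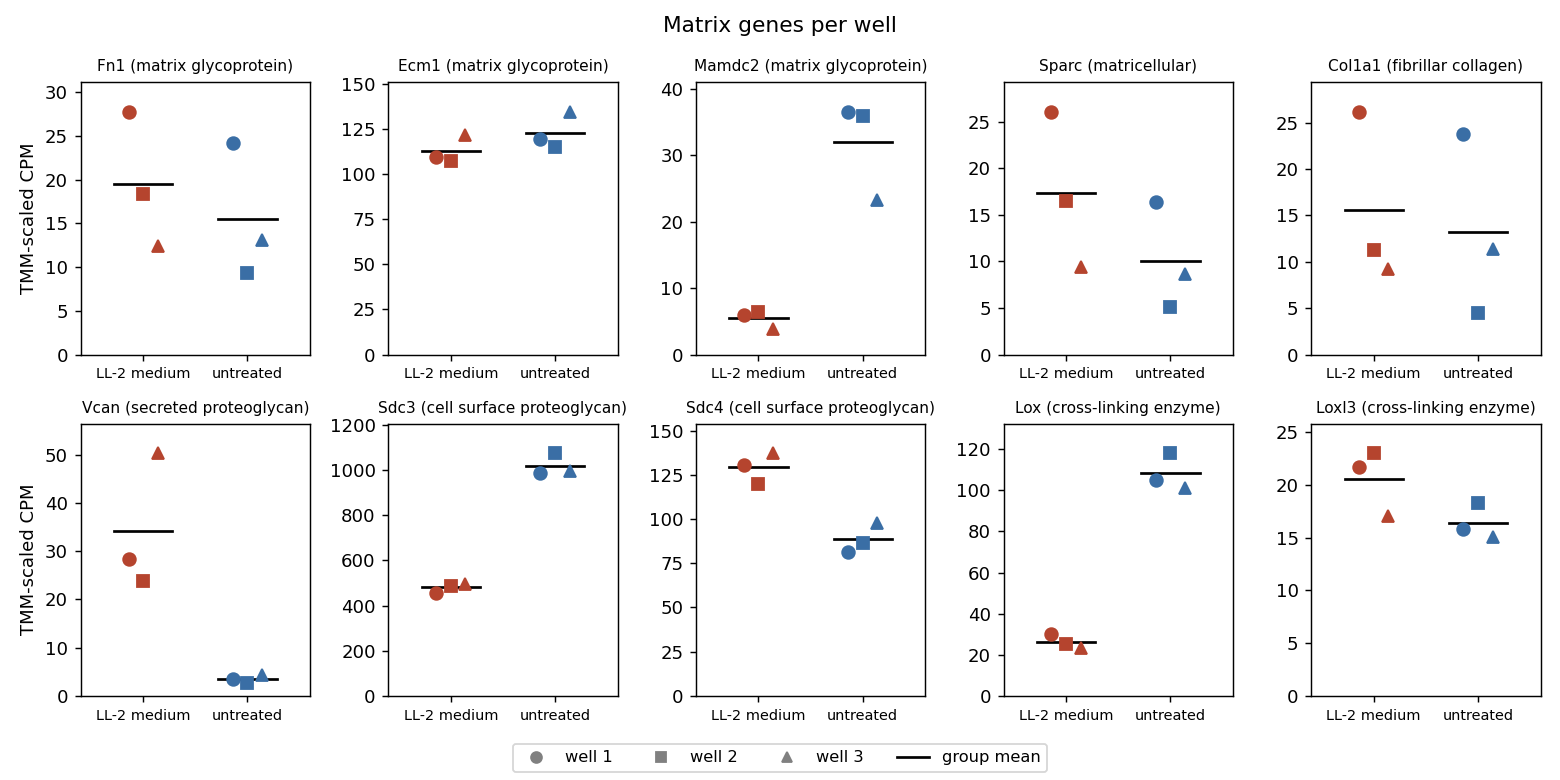
TMM-scaled CPM (vertical axes, each from 0) of the 10 genes in each well, with LL-2 conditioned medium on the left and untreated on the right of each panel. Marker shapes give the well number and horizontal lines the group means. The groups stand apart for Mamdc2, Vcan, Sdc3, Sdc4 and Lox and overlap for the other 5 genes.

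The secreted glycoproteins did not move together. Mamdc2 encodes a secreted protein with MAM domains that has been described as a proteoglycan (ENSMUSG00000033207, chromosome 19, 23302609 to 23448442, minus strand, GRCm38). It stood at 5.93, 6.46 and 3.92 CPM in the conditioned-medium wells, against 36.6, 35.9 and 23.3 CPM in the untreated wells. All conditioned-medium wells were thus below all untreated wells, and the well numbered 3 was the lowest of its group on both sides. The difference was 5.85-fold, with a log2 fold change of -2.55 (SE 0.21). It was -2.62, -2.47 and -2.57 between wells of the same number.

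Ecm1 encodes a secreted glycoprotein that binds perlecan and other matrix proteins (ENSMUSG00000028108, chromosome 3, 95734147 to 95739569, minus strand). It averaged 112.9 ± 7.52 CPM with conditioned medium and 122.9 ± 10.4 CPM untreated (SD, n = 3 each). The highest conditioned-medium well, at 121.5 CPM, lay above the untreated wells at 119.3 and 114.7 CPM. The log2 fold change was -0.12 (SE 0.07) and was not called. Wells of the same number differed by -0.12, -0.09 and -0.15, and with the replicate block the gene was called lower. The size of the difference was small under both fits.

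Fn1 encodes fibronectin, the adhesive glycoprotein that integrins bind (ENSMUSG00000026193, chromosome 1, 71585520 to 71653200, minus strand). It stood at 27.8, 18.3 and 12.4 CPM with conditioned medium and at 24.1, 9.28 and 13.1 CPM untreated. The well numbered 1 was the highest in both groups, and the groups overlapped. The log2 fold change of 0.33 (SE 0.35) was not called. It was -0.014 without the conditioned-medium well numbered 1 and 0.80 without the untreated well of that number.

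Sparc encodes osteonectin, a matricellular protein that binds collagen (ENSMUSG00000018593, chromosome 11, 55394500 to 55423183, minus strand). It stood at 26.1, 16.4 and 9.35 CPM with conditioned medium, against 16.4, 5.07 and 8.65 CPM untreated. The groups overlapped, and the well numbered 1 was again the highest in each. The log2 fold change was 0.79 (SE 0.42) and was not called without the block. Wells of the same number differed by 0.67, 1.70 and 0.11.

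Col1a1 encodes the alpha 1 chain of type I collagen, the main fibrillar collagen of fibroblasts and bone (ENSMUSG00000001506, chromosome 11, 94936224 to 94953042, plus strand). It stood at 26.2, 11.3 and 9.18 CPM with conditioned medium and at 23.7, 4.496 and 11.4 CPM untreated. The wells of one group differed more than the groups did, with a coefficient of variation of 59.6% with conditioned medium and 73.8% untreated. The log2 fold change of 0.24 (SE 0.53) was not called. It was -0.37 without the conditioned-medium well numbered 1 and -0.17 without the untreated well numbered 2.

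The summed stromal markers followed the wells in the same way, though not every marker did. A list of 15 fibroblast and stromal markers, Col1a1 among them, summed to 128.5, 54.1 and 47.8 CPM with conditioned medium, against 92.03, 23.5 and 45.2 CPM untreated. With Col1a1 left out the sums were 102.3, 42.8 and 38.7 CPM with conditioned medium and 68.3, 18.98 and 33.8 CPM untreated. Col1a2, the partner chain of type I collagen, stood at 40.4, 11.4 and 13.2 CPM with conditioned medium and at 26.0, 6.11 and 12.7 CPM untreated. Fap was instead highest in the well numbered 3, at 0.688 CPM with conditioned medium and 0.601 CPM untreated. Tagln was highest in the well numbered 2, at 0.689 CPM with conditioned medium and 0.495 CPM untreated. Every listed stromal marker had counts in at least 1 well, and Lum and Lepr were too low to test.

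Of the 13 tested stromal markers, edgeR called 0, with 3 higher at an unadjusted p under 0.05, and DESeq2 and limma-voom called 0. With the replicate block 7 were called higher, and with no low-count filter 4 of 15. The number was 2 without conditioned-medium well 3, untreated well 1 or both wells numbered 3, and 1 without both wells numbered 1. Fewer cells of a type and less RNA per cell cannot be told apart in wells measured as a whole. The part of stromal cells in the values of Fn1, Sparc and Col1a1 was not tested. The ratio of Sparc to Col1a1 CPM was 0.996, 1.46 and 1.02 in conditioned-medium wells 1, 2 and 3, against 0.692, 1.13 and 0.761 in the untreated wells of those numbers. It was higher with conditioned medium within each number, though the groups overlapped. The ratio of Fn1 to Col1a1 CPM was 1.06, 1.62 and 1.35 with conditioned medium and 1.02, 2.06 and 1.15 untreated, with no common direction. Without both wells numbered 1, a setting added after the data were seen, Fn1, Sparc and Col1a1 had log2 fold changes of 0.45, 0.91 and 0.36 and remained uncalled.

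**Figure D2:**
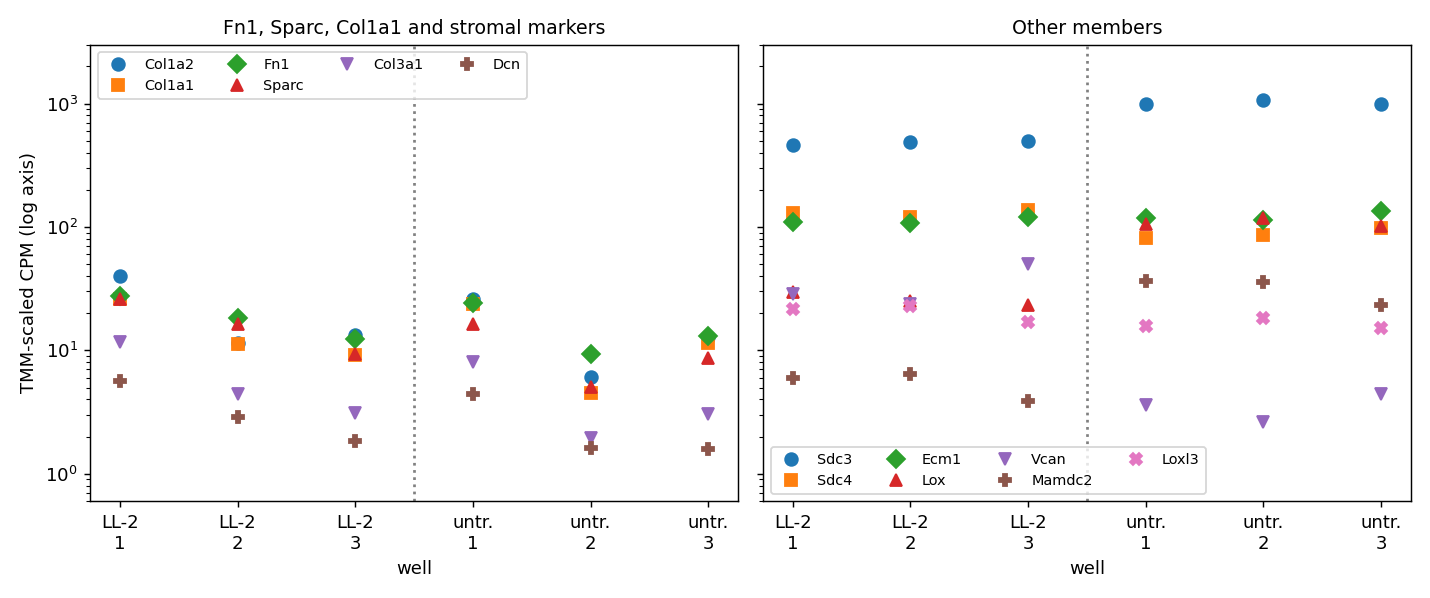
TMM-scaled CPM on a log axis for each well, with LL-2 conditioned-medium wells left of the dotted line and untreated wells right of it. On the left side of the picture, Fn1, Sparc and Col1a1 are shown with the stromal markers Col1a2, Col3a1 and Dcn, and all 6 are highest in the well numbered 1 of each group. On the right side, the other 7 genes have no such shared order.

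Vcan encodes versican, a large chondroitin sulfate proteoglycan that binds hyaluronan (ENSMUSG00000021614, chromosome 13, 89655312 to 89742509, minus strand). It stood at 28.4, 23.9 and 50.4 CPM with conditioned medium, against 3.59, 2.64 and 4.41 CPM untreated. The lowest conditioned-medium well was above the highest untreated well, and the well numbered 3 was the highest of each group. The stromal sum was instead lowest in conditioned-medium well 3, while in the untreated wells it and Vcan were both lowest in well 2. The part of stromal cells in the values of Vcan was not tested. The difference was 9.62-fold, with a log2 fold change of 3.27 (SE 0.31), and 2.98, 3.18 and 3.52 between wells of the same number. It was 2.88 without conditioned-medium well 3. Reads behind these values numbered 3060 with conditioned medium and 260 untreated, over an exonic length of 14462 bases.

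The other hyaluronan-binding proteoglycans of the same family were at the floor. Acan, Bcan and Ncan, encoding aggrecan, brevican and neurocan, had 0 counts in all 6 libraries. Among the link protein genes, whose products stabilise versican on hyaluronan, Hapln1 had 0 counts with conditioned medium and 1 untreated, and Hapln3 had 4 counts with conditioned medium and 17 untreated. Has2, a hyaluronan synthase gene, had 28 counts with conditioned medium and 9 untreated and was too low to test. Cd44, encoding the hyaluronan receptor, was abundant at 239 ± 27.1 CPM with conditioned medium and 240.3 ± 19.3 CPM untreated (SD, n = 3 each; log2 fold change -0.01, SE 0.09).

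The sequence around the start of Vcan is printed because Vcan had the largest change of the 10 genes. It covers 250 bases before to 50 after the RefSeq start (GRCm38.p6, chr13:89742463-89742762, minus strand), written 5′ to 3′. Capitals mark GGGCGG, the GC box, on either strand, with matches beginning at positions -219 and -10.
Vcan: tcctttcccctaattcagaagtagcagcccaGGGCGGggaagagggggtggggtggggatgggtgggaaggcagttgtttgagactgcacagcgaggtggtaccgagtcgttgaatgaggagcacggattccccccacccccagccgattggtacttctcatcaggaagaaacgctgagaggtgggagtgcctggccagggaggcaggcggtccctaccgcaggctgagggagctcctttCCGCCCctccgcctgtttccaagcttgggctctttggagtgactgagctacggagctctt
The letters TGANTCA (AP-1), ACGTG (the core of hypoxia-inducible factor sites), TATAAA and TTCNNNGAA (STAT) were searched on both strands and are not in this window. Among 32851 RefSeq windows of this length, 35.7% hold the GC box, 7.81% the AP-1 letters, 19.6% the hypoxia core, 13.6% the TATA box and 8.30% the STAT letters.

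The syndecan genes changed in opposite directions. Sdc3, encoding a syndecan best known from nerve and muscle, stood at 457.5, 487.4 and 496.0 CPM with conditioned medium, against 985.7, 1076 and 997.2 CPM untreated (ENSMUSG00000025743, chromosome 4, 130792537 to 130826319, plus strand). The groups were far apart and tight, with coefficients of variation of 4.21% with conditioned medium and 4.84% untreated. It was 2.12-fold lower, with a log2 fold change of -1.09 (SE 0.05). Sdc4, encoding a widely expressed syndecan of focal adhesions, stood at 130.8, 119.98 and 137.5 CPM with conditioned medium, against 81.4, 86.4 and 97.7 CPM untreated (ENSMUSG00000017009, chromosome 2, 164424247 to 164443887, minus strand). It was 1.46-fold higher, with a log2 fold change of 0.55 (SE 0.07), and no well crossed into the range of the other group.

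The other syndecan genes were not among the 10. Sdc1 fell to 33.0 ± 1.67 CPM with conditioned medium, against 80.7 ± 2.66 CPM untreated (SD, n = 3 each; log2 fold change -1.29, SE 0.05, edgeR adjusted p = 6.21e-07). Sdc2 was scarce, at 1.01 ± 0.32 CPM with conditioned medium and 0.768 ± 0.339 CPM untreated, and was not called (edgeR adjusted p = 0.486).

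Per kilobase of exons, the syndecan genes together summed to 139.9 ± 4.59 RPKM with conditioned medium and 226.4 ± 7.996 RPKM untreated. On that scale Sdc3 made 57.3% ± 1.66 of the sum with conditioned medium and 75.2% ± 1.38 untreated, and Sdc4 made 36.3% ± 1.83 with conditioned medium and 15.3% ± 1.43 untreated. Sdc1 made 6.19% ± 0.50 with conditioned medium and 9.37% ± 0.59 untreated (SD, n = 3 each throughout). Sdc3 was the most abundant syndecan transcript in all 6 wells.

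The windows around the starts of Sdc4 and Sdc3 are shown side by side because these genes changed in opposite directions. They are RefSeq windows on GRCm38.p6 at chr2:164443139-164443438, minus strand, and chr4:130792287-130792586, plus strand, with capitals again marking GGGCGG on either strand.
Sdc4: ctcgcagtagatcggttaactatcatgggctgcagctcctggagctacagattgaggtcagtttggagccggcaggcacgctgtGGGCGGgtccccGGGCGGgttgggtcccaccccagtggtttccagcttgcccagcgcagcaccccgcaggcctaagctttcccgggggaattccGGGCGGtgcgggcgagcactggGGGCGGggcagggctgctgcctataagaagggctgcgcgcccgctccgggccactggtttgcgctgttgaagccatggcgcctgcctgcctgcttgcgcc
Sdc3: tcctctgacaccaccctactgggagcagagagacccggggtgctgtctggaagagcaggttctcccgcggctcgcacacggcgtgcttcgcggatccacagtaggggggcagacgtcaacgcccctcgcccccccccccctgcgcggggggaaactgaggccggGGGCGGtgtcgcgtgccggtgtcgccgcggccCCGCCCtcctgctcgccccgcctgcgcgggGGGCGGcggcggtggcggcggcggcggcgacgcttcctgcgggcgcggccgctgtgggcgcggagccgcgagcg
Sdc4 holds 4 matches and Sdc3 holds 3, and the other 4 letter strings searched are in neither. The share of G and C was 67.7% in Sdc4 and 77.7% in Sdc3, against 61.0% in Vcan. Of the 10 genes, 5 had a window in the table. Ecm1, which was not called, had the only AP-1 and the only TATA box matches among them.

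Lox encodes lysyl oxidase itself, the enzyme that cross-links collagen and elastin (ENSMUSG00000024529, chromosome 18, 52516067 to 52529867, minus strand). It stood at 29.99, 25.2 and 23.2 CPM with conditioned medium, against 105.2, 118.3 and 101.4 CPM untreated. The highest conditioned-medium well was below the lowest untreated well by a wide margin. The difference was 4.14-fold, with a log2 fold change of -2.05 (SE 0.09), and -1.81, -2.23 and -2.13 between wells of the same number. In the conditioned-medium wells Lox was highest in the well numbered 1, where the stromal sum was also highest. In the untreated wells it was highest in well 2, where that sum was lowest. The part of stromal cells in the values of Lox was not tested.

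Loxl3 encodes a lysyl oxidase-like enzyme of the same family (ENSMUSG00000000693, chromosome 6, 83034173 to 83052562, plus strand). It stood at 21.7, 23.0 and 17.0 CPM with conditioned medium and at 15.8, 18.3 and 15.1 CPM untreated, and the groups overlapped at the conditioned-medium well numbered 3. The log2 fold change was 0.33 (SE 0.12) and was not called without the block. Its exons overlap those of Htra2 on the opposite strand over 535 bases. Htra2 held 7950 counts over the 6 libraries against 3058 of Loxl3, and the strand setting of the counting is not given in the sources used here, so its counts are uncertain.

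The remaining family members were low. Loxl1 averaged 2.85 ± 1.62 CPM with conditioned medium and 1.53 ± 1.20 CPM untreated, and Loxl2 1.74 ± 0.74 CPM with conditioned medium and 0.758 ± 0.539 CPM untreated (SD, n = 3 each). Neither was called by edgeR (adjusted p = 0.265 for Loxl1 and 0.0921 for Loxl2), though both were called higher with the replicate block (adjusted p = 0.0143 and 0.00326). Loxl2 was also called without untreated well 1 and without both wells numbered 1 (adjusted p = 0.0168 and 0.0399), and with all libraries by DESeq2 (0.0486) and by edgeR with no low-count filter (0.0112). Loxl4 was too low to test.

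Per kilobase of exons the lysyl oxidase genes summed to 11.2 ± 1.85 RPKM with conditioned medium and 26.9 ± 2.02 RPKM untreated. Lox made 49.0% ± 2.85 of that sum with conditioned medium and 84.2% ± 1.41 untreated, and Loxl3 made 40.03% ± 3.93 with conditioned medium and 13.2% ± 0.42 untreated (SD, n = 3 each). Lox itself stood at 5.47 RPKM with conditioned medium and 22.7 RPKM untreated, and Loxl3 at 4.47 and 3.56 RPKM. Since the counts of Loxl3 are uncertain, so are these sums and shares. Loxl1, whose well order was that of the stromal sum, made 4.93% to 10.9% with conditioned medium and 0.517% to 3.23% untreated.

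**Figure D3:**
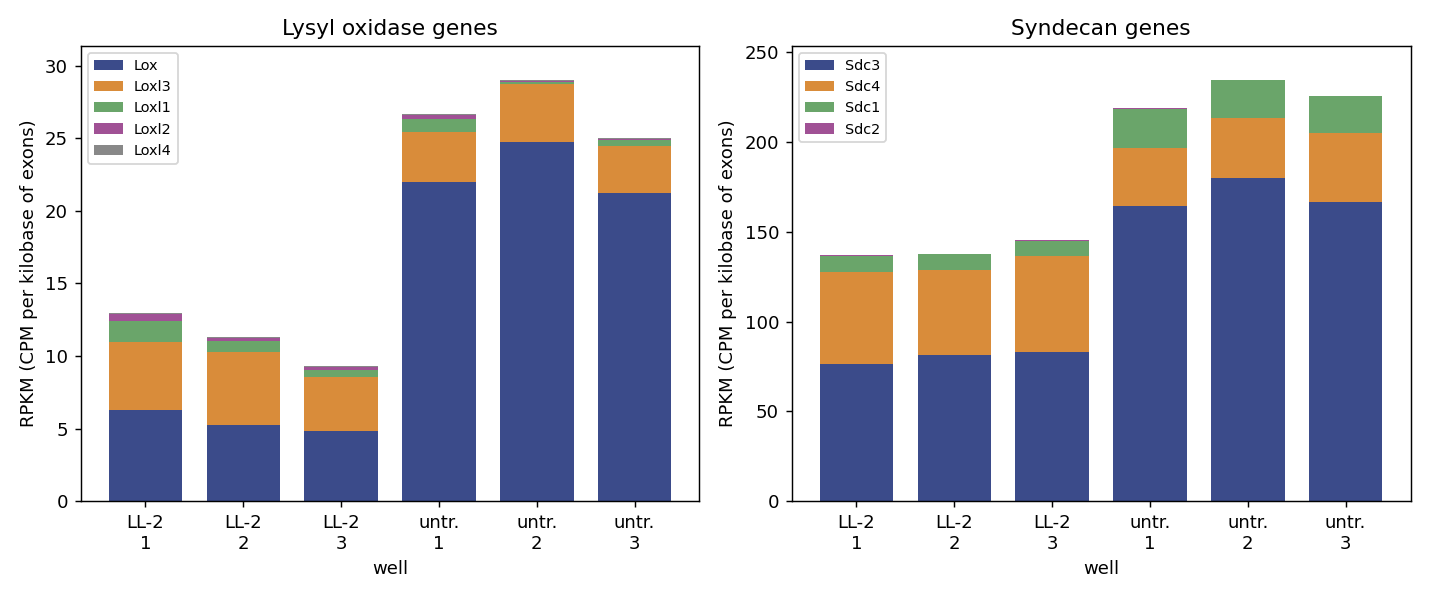
Stacked bars of RPKM (TMM-scaled CPM per kilobase of exons, vertical axes from 0) for the lysyl oxidase genes on the left and the syndecan genes on the right, with 1 bar per well and the LL-2 conditioned-medium wells before the untreated wells. Both family sums are lower in each conditioned-medium well than in each untreated well, with smaller Lox and Sdc3 segments and a larger Sdc4 segment.

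Per kilobase of exons, the order of the 10 genes with conditioned medium was Sdc3 at 80.2 ± 3.38 RPKM, Sdc4 at 50.8 ± 3.47, Ecm1 at 44.8 ± 2.98, Lox at 5.47 ± 0.73, Sparc at 4.57 ± 2.22, Loxl3 at 4.47 ± 0.69, Col1a1 at 2.37 ± 1.41, Vcan at 2.37 ± 0.98, Fn1 at 1.67 ± 0.66 and Mamdc2 at 1.57 ± 0.39 (SD, n = 3). Untreated, it was Sdc3 at 170.3 ± 8.23 RPKM, Ecm1 at 48.7 ± 4.14, Sdc4 at 34.7 ± 3.28, Lox at 22.7 ± 1.86, Mamdc2 at 9.23 ± 2.16, Loxl3 at 3.56 ± 0.37, Sparc at 2.65 ± 1.53, Col1a1 at 2.01 ± 1.49, Fn1 at 1.33 ± 0.66 and Vcan at 0.245 ± 0.061. With conditioned medium, Lox, Sparc and Loxl3 lay within 1 SD of their neighbours, as did Col1a1, Vcan, Fn1 and Mamdc2, while Loxl3 and Col1a1 differed by more than 1 SD of either. Untreated, the neighbours from Loxl3 to Fn1 lay within 1 SD of each other. Vcan was thus the scarcest of the 10 per length in the untreated wells, and with conditioned medium its level was within the spread of that of Col1a1. With conditioned medium no single gene was the scarcest in every well.

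The 10 genes belong to a larger set of 225 matrix genes listed by role, of which the other 215 were examined in the same fit. Of these, 148 were tested, 30 rose and 24 fell, which makes 36.5% called against 27.9% of all tested genes. Nothing is read from that comparison either, since the lists were chosen with earlier results of these data known. Their median log2 fold change was 0.18, and the remaining 67 were too low to test. The number higher was 19 without conditioned-medium well 1 and 20 without both wells numbered 1, where 14 were lower. With the replicate block 56 were higher and 28 lower. Of the 30 that rose, 8 were highest in the well numbered 1 of both groups (26.7%), as were 10.3% of all genes called higher. Of the 24 that fell, 0 were. The share among all genes called lower was not computed, so nothing is read from that 0.

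**Figure D4:**
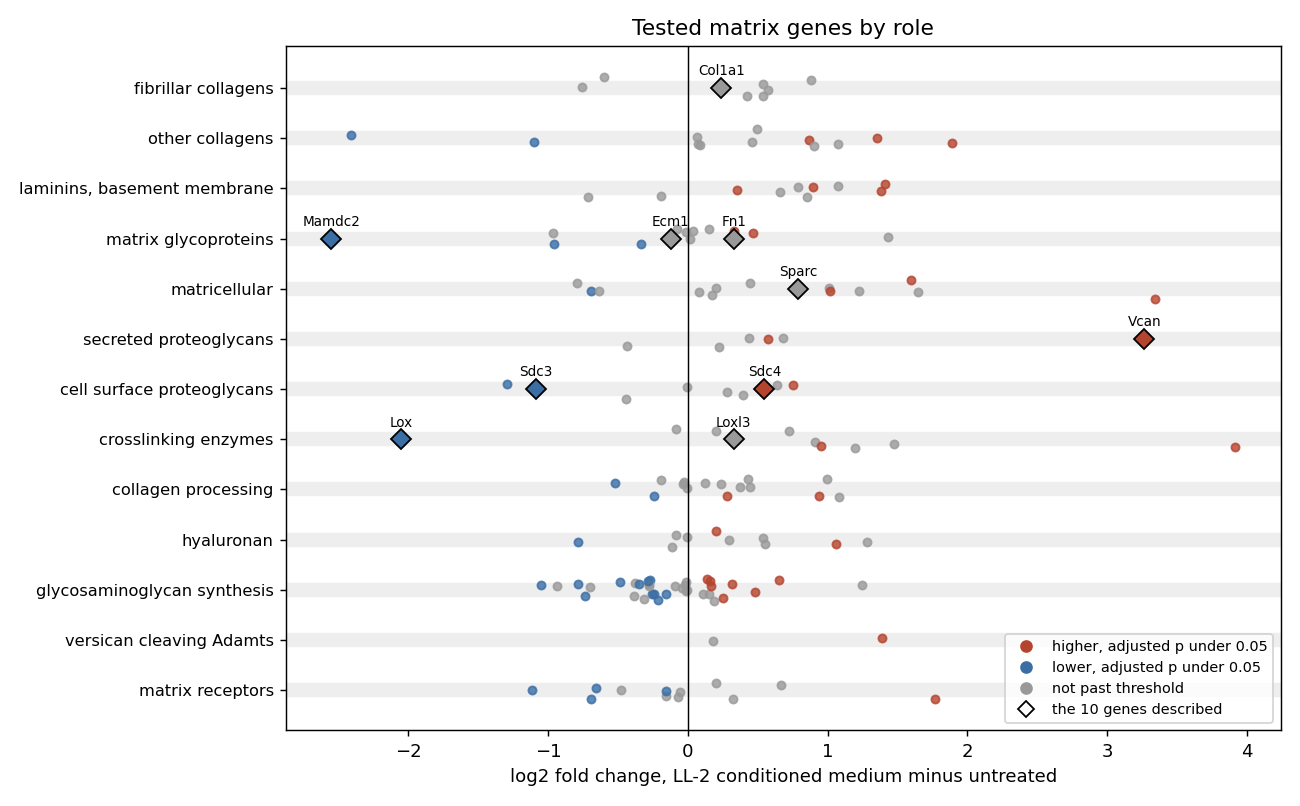
Log2 fold changes (horizontal axis, LL-2 conditioned medium minus untreated) of every tested matrix gene, with 1 row per role. Red points were called higher, blue points lower and grey points neither, at an edgeR adjusted p under 0.05, and diamonds are the 10 genes described. Fibrillar collagens hold grey points only, and genes of glycosaminoglycan synthesis lie on both sides of 0.

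No fibrillar collagen gene was called. Of 7 tested besides Col1a1, edgeR called 0, with 0 at an unadjusted p under 0.05, and DESeq2 and limma-voom also called 0. With the replicate block 4 were higher, and without untreated well 2 the number was 1. Col27a1 had the smallest p (log2 fold change -0.76, SE 0.38, adjusted p = 0.174).

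Among 12 other collagen genes tested, 3 rose and 2 fell. Col4a5, a basement membrane collagen gene, fell to 0.457 ± 0.169 CPM with conditioned medium, against 2.44 ± 0.56 CPM untreated (SD, n = 3 each; log2 fold change -2.41, edgeR adjusted p = 0.000567). Col15a1 fell with a log2 fold change of -1.10 (adjusted p = 0.00116). Col4a1, encoding the main type IV chain, rose to 13.9 ± 4.06 CPM, against 5.47 ± 2.94 CPM untreated (log2 fold change 1.35, adjusted p = 0.0140). The other genes that rose, Col14a1 and Col4a2, are named after their values were seen, with log2 fold changes of 1.89 and 0.87. The number that rose was 1 without conditioned-medium well 1, conditioned-medium well 2, untreated well 2 or both wells numbered 1, and 5 with the replicate block.

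Laminin, nidogen and related basement membrane genes were listed apart from the type IV collagens. Of 10 tested, 4 rose and 0 fell by edgeR, with 5 higher and 0 lower at an unadjusted p under 0.05. DESeq2 called 5 higher and limma-voom 4, and both called 0 lower. Nid2 and Nid1, encoding nidogens that link laminin to type IV collagen, rose with log2 fold changes of 1.41 and 1.38 (adjusted p = 0.0263 and 0.0343). Nid2 overlaps Rtraf on the opposite strand and its counts are uncertain. Lamb2, a laminin chain gene, rose with a log2 fold change of 0.89 (adjusted p = 0.00632). The number that rose was 2 without conditioned-medium well 1 or 2. With the replicate block, without conditioned-medium well 3 or without both wells numbered 3, 1 fell.

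In the same wells the endothelial markers Pecam1, Cdh5 and Emcn were called higher and Kdr and Vwf lower. The 6 endothelial markers summed to 69.0 to 97.99 CPM with conditioned medium and 130.04 to 138.2 CPM untreated. Vwf was the largest part of that sum, at a mean of 42.2 CPM with conditioned medium and 94.3 CPM untreated. Nid1, Lamb2 and Col4a1 were highest in the well numbered 1 of both groups, as the stromal sum was. For Col4a1, however, conditioned-medium wells 1 and 2 were close, at 16.4 and 16.1 CPM, against 9.22 CPM in well 3. Nid2 was highest in the well numbered 2 of both groups, as Pecam1, Cdh5, Emcn and Kdr were. Vwf was highest in conditioned-medium well 2 and untreated well 3, and Col4a2 in conditioned-medium well 2 and untreated well 1. The part of either cell type in these rises was not tested.

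Other matrix glycoproteins were divided. Of 12 tested besides Fn1, Ecm1 and Mamdc2, 2 rose and 2 fell. Fgl2, encoding a secreted and membrane-bound fibrinogen-like protein, fell to 83.5 ± 5.05 CPM, against 162.2 ± 26.4 CPM untreated (SD, n = 3 each; log2 fold change -0.96, adjusted p = 0.000172 by edgeR). Emilin2, encoding an elastin microfibril protein, rose to 280.3 ± 2.08 CPM, against 203.0 ± 4.52 CPM untreated (adjusted p = 3.74e-05). Without conditioned-medium well 2, untreated well 1 or 2 or both wells numbered 1, the number that fell was 1. The number that rose was 3 without untreated well 1 and 1 without both wells numbered 1.

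Of 13 tested matricellular genes besides Sparc, 3 rose and 1 fell. Thbs1, encoding thrombospondin, a regulator of adhesion and of TGF-beta activation, rose with a log2 fold change of 3.34 (edgeR adjusted p = 1.04e-07). Tgfbi, encoding a collagen-binding protein induced by TGF-beta, rose to 455.3 ± 11.8 CPM, against 225.4 ± 27.0 CPM untreated (SD, n = 3 each). Ccn1 rose with a log2 fold change of 1.598 at a low level, 4.94 ± 2.46 CPM with conditioned medium and 1.64 ± 1.06 CPM untreated. Spp1, encoding osteopontin and named after its values were seen, fell to 652.2 ± 38.6 CPM, against 1052 ± 41.5 CPM untreated. The number that rose was 5 without untreated well 1 and 6 with the replicate block.

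Among the other proteoglycan genes, 1 of 5 tested secreted ones rose. This was Srgn, encoding the granule proteoglycan serglycin, at 131.1 ± 3.49 CPM with conditioned medium and 87.9 ± 4.20 CPM untreated (SD, n = 3 each; log2 fold change 0.58, edgeR adjusted p = 3.30e-05). Of 7 tested cell surface proteoglycan genes besides Sdc3 and Sdc4, Sdc1 fell and Tgfbr3 rose (log2 fold change 0.75, adjusted p = 0.0489).

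Among the other genes of cross-linking, which include the remaining lysyl oxidases, transglutaminases, lysyl hydroxylases and peroxidasin, none was called lower by edgeR. Of 9 tested besides Lox and Loxl3, 3 rose and 0 fell by edgeR, with 6 higher and 0 lower at an unadjusted p under 0.05. DESeq2 called 6 higher and limma-voom 3. With the replicate block 8 rose, and 5 did without untreated well 1 or without both wells numbered 3. F13a1, the transglutaminase subunit of coagulation factor XIII, which cross-links fibrin and fibronectin, rose 15.1-fold, to 980.5 ± 4.59 CPM with conditioned medium, against 65.0 ± 5.85 CPM untreated (SD, n = 3 each; adjusted p = 6.05e-09). Tgm1, another transglutaminase gene, rose to 5.40 ± 0.17 CPM, against 2.80 ± 0.51 CPM untreated. Plod1, a collagen lysyl hydroxylase gene, rose with a log2 fold change of 0.31.

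Of 15 tested genes of collagen folding and processing, 2 rose and 2 fell. P4ha2 and P4ha1, encoding prolyl hydroxylase subunits, rose with log2 fold changes of 0.94 and 0.28 (edgeR adjusted p = 0.00982 and 0.00193). Colgalt1, a collagen galactosyltransferase gene, fell with a log2 fold change of -0.52. It overlaps Unc13a on the opposite strand, which held 852 counts over the 6 libraries against 35497 of Colgalt1. With the replicate block 6 rose.

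Genes that make or modify glycosaminoglycan chains, which versican and the syndecans carry, moved in both directions. Of 35 tested, 7 rose and 11 fell. Xylt1, encoding a xylosyltransferase that starts the chains, fell to 28.4 ± 2.96 CPM with conditioned medium, against 48.9 ± 4.41 CPM untreated (SD, n = 3 each; log2 fold change -0.79, edgeR adjusted p = 0.000187). The chondroitin sulfotransferase genes Chst7 and Chst11 fell with log2 fold changes of -1.05 and -0.73 (adjusted p = 0.00120 and 0.0154). Chsy1, a chondroitin synthase gene named after its values were seen, rose with a log2 fold change of 0.65 (edgeR adjusted p = 5.15e-05). Without both wells numbered 1, 4 rose and 5 fell. The number that rose was also 4 without conditioned-medium well 1 or 2 or untreated well 2, and 4 with RLE scaling or DESeq2.

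Of 10 tested hyaluronan genes, 2 rose and 1 fell. Stab1, a scavenger receptor gene, rose to 3484 ± 224 CPM with conditioned medium, against 1668 ± 70.3 CPM untreated (SD, n = 3 each). It overlaps Nt5dc2 on the opposite strand, which held 14361 counts over the 6 libraries against 435483 of Stab1. Cemip2, encoding a cell surface hyaluronidase, rose with a log2 fold change of 0.20 (edgeR adjusted p = 0.0401), and Hmmr, which is also a mitotic gene, fell with one of -0.79.

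Of 12 matrix receptor genes, all tested, 1 rose and 4 fell. Itga1, encoding the alpha chain of a collagen-binding integrin, rose to 9.55 ± 0.47 CPM, against 2.81 ± 0.53 CPM untreated (SD, n = 3 each; log2 fold change 1.77, edgeR adjusted p = 3.16e-05). Lair1, an inhibitory collagen receptor gene, fell to 77.3 ± 4.12 CPM, against 167.1 ± 4.08 CPM untreated (log2 fold change -1.11, adjusted p = 1.01e-06). Itgav, encoding the alpha chain of fibronectin- and vitronectin-binding integrins, fell with a log2 fold change of -0.69. Itga5 and Itgb1, which together form the fibronectin receptor and are named after their values were seen, fell with log2 fold changes of -0.66 and -0.15.

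Of the matrix genes named outside the 10, with Chsy1 left out, 34 were called by edgeR. Of these, 21 kept the call in every alternative in which they were tested, F13a1, Thbs1, Sdc1, Tgfbi, Stab1, Itga1 and Lair1 among them. The other 13 lost it in at least 1 fit without libraries, and 4 of them also with all libraries. These were Tgfbr3 with DESeq2 and limma-voom (adjusted p = 0.0685 and 0.0601), Cemip2 with DESeq2 (0.102), Col4a2 with limma-voom (0.0584), and Itgb1 with no scaling and no low-count filter (0.137 and 0.0765). Without conditioned-medium well 1 the calls lost were those of Ccn1, Cemip2, Col4a1, Col4a2, Hmmr, Itgb1, Nid1, Nid2 and Tgfbr3 (edgeR adjusted p of 0.0599 to 0.193). Chst11 lost it without untreated well 1 or 2 (adjusted p = 0.0536 and 0.0690), and Col14a1, P4ha2 and Plod1 without both wells numbered 1 (adjusted p = 0.103, 0.114 and 0.0523). Without untreated well 2 the calls of Ccn1, Cemip2, Col4a1, Col4a2, Hmmr, Itgb1, Nid1 and Tgfbr3 were lost as well. Most of the genes counted here were named because they were called, and the alternatives refit the same libraries. The number called and the calls kept therefore support nothing.

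Markers of other cells were summed per well, and the part of those cells in the values of the matrix genes was not tested. The 8 carcinoma and epithelial markers summed to 0.757 to 1.48 CPM with conditioned medium and 0.835 to 1.36 CPM untreated. Cldn4 had 0 counts in all wells, Epcam had 2 counts in a single conditioned-medium well, and 0 of 1 tested was called by edgeR, at an unadjusted p under 0.05 or by DESeq2 or limma-voom. The 6 osteoblast markers summed to 3.40 to 5.51 CPM with conditioned medium and 5.05 to 8.19 CPM untreated. Both tested, Runx2 and Alpl, were lower at an unadjusted p under 0.05 and not called by edgeR, DESeq2 or limma-voom. The megakaryocyte and platelet markers summed to 124.1 to 268.3 CPM with conditioned medium and 125.7 to 208.4 CPM untreated, and only Pf4 was called, higher. All 5 tested mast cell and basophil markers fell, with sums of 4.09 to 9.02 CPM with conditioned medium and 14.7 to 22.9 CPM untreated. The neutrophil markers summed to 94.6 to 115.7 CPM with conditioned medium and 101.3 to 145.6 CPM untreated, and Retnlg was called higher and Camp and Ltf lower. The lymphoid markers summed to 3.23 to 4.52 CPM with conditioned medium and 4.89 to 5.78 CPM untreated, and Ms4a1 was called lower. The erythroid markers summed to 1.93 to 2.69 CPM with conditioned medium and 1.68 to 2.67 CPM untreated.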

How the data were processed

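RNA was taken from 6 wells, 3 per group, enriched with oligo(dT) beads and copied from random hexamers, per the labels' protocols. The authors deposited raw gene counts for every library beside the exonic length of each gene. HISAT2, featureCounts and the build GRCm38 are named in the submitters' processing notes. Their versions, the strand setting and the treatment of multiply mapping reads were not given in the sources used here. Of 55421 identifiers, 55240 matched GENCODE M21, which supplied symbols.

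Counts were filtered with filterByExpr, scaled by TMM and compared with edgeR 4.0.16 (quasi-likelihood test, group alone, limma 3.58.1, R 4.3.3), with Benjamini-Hochberg adjustment over 13853 genes. SE came from the F statistic. RPKM were computed as TMM-scaled CPM per kilobase of the deposited length. Promoter windows are from RefSeq. The fits were tested on simulated data. Alternatives were RLE or no scaling, DESeq2 1.42.0, limma-voom, other filters, the replicate block and fits without libraries.

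The genes and lists were chosen with earlier results of these data known. All 10 genes are named, and from each list up to 3 others with the largest called change, a mean of at least 1 CPM and no overlap of groups, or else the smallest p. The other lysyl oxidases and syndecans were always named. Some genes that this rule gives are not reported here.

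Replicate numbers are shared by the groups. Deviations from the group means correlated at 0.377, 0.204 and 0.397 between same-numbered wells and at -0.360 to 0.066 otherwise. On these data the numbers were taken to pair the wells, although the labels leave their meaning unstated. The main fit, on group alone, leaves that pairing out and called 27.9% of tested genes, against 36.3% with the replicate block. A gene given as not called may therefore be called with the block. On the second principal component the wells numbered 3 stood apart in both groups.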

Additional observations from a re-analysis of the deposited data

How the results depend on the processing

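Across 15 alternatives, Vcan and Sdc4 stayed higher and Mamdc2, Lox and Sdc3 lower, past the threshold in all 75 values. Their log2 fold changes, in that order, were 2.88 to 3.46, 0.48 to 0.63, -2.73 to -2.37, -2.18 to -1.97 and -1.13 to -1.03. The genes were selected on these same libraries, so passing the threshold again supports nothing. Of the 10 genes, 2 were higher, but 4 with the replicate block and 4 with no low-count filter, and 2 to 3 when libraries were left out. Sparc and Loxl3 were the added genes with the block and without the filter. Loxl3 was also called with no scaling beyond the total count, without conditioned-medium well 3 and without both wells numbered 3. The 3 lower genes stayed 3 when libraries were left out, and Ecm1 was added by the block. Beyond Ecm1, Sparc and Loxl3, the block changed no call of the 10 genes. Of the other named matrix genes, it added Loxl1, Loxl2, Col1a2 and Col3a1. Directions turned for Fn1 (-0.014) and Col1a1 (-0.37) without conditioned-medium well 1 and for Col1a1 (-0.17) without untreated well 2. Col1a2 (-0.28), Col3a1 (-0.20) and Dcn (-0.11), uncalled, also turned without conditioned-medium well 1, and the cause was not tested. Leave-one-out values ran to 0.80 for Fn1, 0.97 for Col1a1, 1.20 for Col1a2, 1.36 for Col3a1 and 1.10 for Dcn, all without untreated well 1. Cd44 was at -0.01 and never called, and its sign turned with no scaling (0.049), with no low-count filter (0.010) and when libraries were left out (-0.088 to 0.076). Of the other matrix genes, 30 were higher and 24 lower. The replicate block called 56 higher, and leaving out libraries gave 19 to 36 higher and 14 to 25 lower. Fits with fewer libraries have less power. Of 390 counts for single roles, 86 moved by over 1.5 times. The 20 RPKM means moved by less than 1 SD with no scaling. Leaving out both wells numbered 1 was chosen after seeing the data. Genes of a few CPM, Vcan untreated among them, rest on few reads.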
